A study of Mus musculus with 12 samples.

Results

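The comparison described here is mcIRBP against mock in normal mice, 6 of the 12 arrays of the series. Its arrays were chosen by their titles, TI_1 to TI_3 normal against Mock_1 to Mock_3 normal. All 29922 probes were measured on each array, 21020 of them with 1 gene symbol, and these name 16675 genes. Both groups were BALB/c mice labelled female. The mock group was labelled untreated, and the mcIRBP group received 2.5 nmol mcIRBP, an insulin receptor-binding protein of bitter melon (Momordica charantia). The labels give no age, route or time after treatment, and do not say whether the 3 arrays of a group came from 3 mice, so that the p-values measure only the spread between these arrays, which may be technical. RNA from tissue labelled muscle was amplified and hybridised with Cy5 to 1-colour arrays. The other 6 arrays are of diabetic mice labelled male and titled DM1, 3 mock and 3 given the same 2.5 nmol mcIRBP. They are used only where the effect is compared between disease states and in 1 alternative fit of all 12 arrays.

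The insulin receptor is a membrane tyrosine kinase that passes its signal through IRS proteins, PI3 kinase and AKT. In muscle and fat this pathway brings the glucose transporter GLUT4, the product of Slc2a4, to the cell surface, and in liver it restrains glucose output. Liver cells secrete most plasma proteins, and fat cells are known for adiponectin and lipid droplet proteins. Genes of these pathways and tissues were counted beside markers of skeletal muscle, to show which transcripts differed between treated and mock animals.

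The levels below are log2 intensities after background correction and quantile normalization of the 6 normal arrays, where about 5.8 is the floor. A probe was above the floor threshold of an array when its raw intensity lay more than 5 SD above the mode of that array, the SD being taken from the values mirrored below the mode. Between 2731 and 4101 probes passed on the mock arrays and between 6634 and 8745 on the mcIRBP arrays, and whether this gap bears on the calls was not tested. Pearson r across all probes was 0.900 to 0.937 between mock arrays, 0.941 between mcIRBP replicates 1 and 3, and 0.839 and 0.852 between these and mcIRBP replicate 2. On mcIRBP replicate 2, 92 probes were more than 1 log2 unit above every other normal array and 199 were more than 1 below, against at most 13 and 49 on any other array.

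The label muscle was checked against 41 measured genes of skeletal muscle. Only 1 was above the threshold on all 3 mock arrays and 5 on all 3 mcIRBP arrays, while 25 were below it on all 6. Acta1, the actin of skeletal muscle fibres, had 7.59, 6.99 and 7.28 on the mock arrays and 7.48, 8.44 and 7.59 on the mcIRBP arrays. The fast myosin gene Myh4 had 6.85, 5.73 and 6.24 against 5.84, 6.11 and 6.10, so both muscle genes overlapped between the groups. Of 24 genes of fat cells, 17 were above the threshold on all 3 mock arrays and 23 on all 3 mcIRBP arrays. Of 199 genes in 10 liver lists, the counts were 135 and 54. In bulk RNA, fewer cells of a type and less RNA per cell cannot be told apart, and the part of liver or fat tissue in the results below was not tested.

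A probe was called where its adjusted p in limma was under 0.05 (Benjamini-Hochberg over all 29922 probes), and "rose" and "fell" are used only of called probes. Of all probes 131 (0.438%) rose and 364 (1.22%) fell, and 3551 had an unadjusted p under 0.05. The 2 groups of arrays did not overlap on 3044 probes higher and 2395 lower with mcIRBP, and all called probes were among these. No overlap therefore adds nothing to a call. The falls were larger than the rises: the median log2 fold change was -1.55 among probes that fell and 0.50 among those that rose. Beyond 2-fold there were 269 falls and 21 rises, and 52 falls were beyond 8-fold. On 241 of the 364 probes that fell all 3 mcIRBP arrays were below the threshold, and on 95 of the 131 that rose all 3 mock arrays were. For such probes a fold is given as a bound, "at least", against the threshold. The number of rises depended on single arrays. It was 64, 45 and 24 without mock replicates 1, 2 and 3 in turn, and 173, 109 and 45 without mcIRBP replicates 1, 2 and 3, while the falls ran from 247 to 360.

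**Figure D1:**
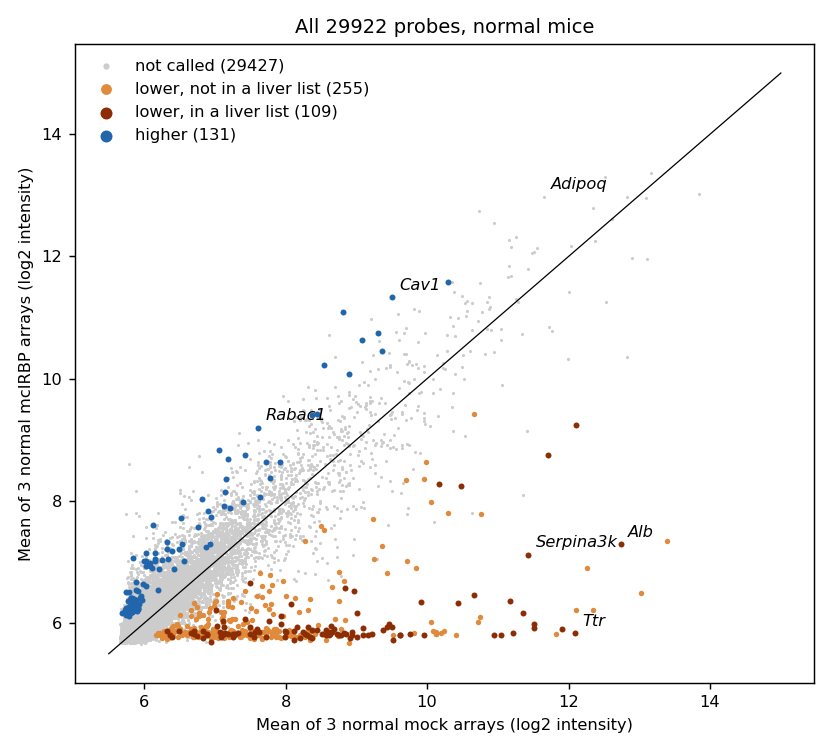
Mean log2 intensity of each of the 29922 probes on the 3 normal mock arrays (horizontal axis) and the 3 normal mcIRBP arrays (vertical axis), with the line of equality. The 364 probes that fell, coloured by whether their gene is in a liver list, lie far below the line and many reach the floor, while the 131 that rose lie closer to it.

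Genes of the liver made up the largest group of falls among the lists, 109 of 282 genes that fell. Of 199 measured genes in the liver lists 109 fell, 0 rose and 90 did not pass, with a median log2 fold change of -1.22. Over all 16675 genes the median was 0.005, and 1.67% fell and 0.63% rose. The mean level of the liver genes was 8.0 to 8.11 on the mock arrays and 6.48 to 6.53 on the mcIRBP arrays, so the groups did not overlap. For 72 of them all mock arrays and no mcIRBP array were above the threshold. The count that fell was 91 without mcIRBP replicate 2, the array that stood apart, and 80 to 111 over all 6 arrays left out in turn.

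Among apolipoproteins, which carry lipids in plasma, 11 of 17 genes fell and 0 rose (median -1.73), and 7 fell without mcIRBP replicate 1 or without mcIRBP replicate 3. Apoa2, a protein of high density lipoprotein, had 11.83, 12.07 and 11.83 on the mock arrays and 5.99, 5.85 and 5.87 on the mcIRBP arrays. All mock arrays were bright and all mcIRBP arrays were below the threshold, a fall of at least 57.1-fold (adjusted p = 3.71e-06). Apoa1, the main protein of the same particle, had 11.95, 10.80 and 11.79 against 6.06, 5.95 and 5.95, at least 43.5-fold lower (adjusted p = 0.000547). Mock replicate 2 was the lowest of its group, still far above every mcIRBP array. Apoc3, an inhibitor of lipoprotein lipase, had 11.19, 11.34 and 10.98 against 6.34, 6.52 and 6.23. It stayed above the threshold on all 6 arrays, and its log2 difference was -4.81 (SE 0.12, adjusted p = 2.63e-05).

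Of 26 genes of plasma carriers and hormone binding 14 fell and 0 rose (median -1.33). Alb, serum albumin, had 12.74, 12.82 and 12.67 on the mock arrays and 6.97, 7.27 and 7.63 on the mcIRBP arrays. It was above the threshold on all 6 arrays, and the groups lay far apart, with a log2 difference of -5.45 (SE 0.17, adjusted p = 5.24e-05). Ttr, the thyroxine and retinol carrier transthyretin, had the largest fall of the named genes, with 11.49, 12.50 and 12.27 against 5.84, 5.78 and 5.89. No mcIRBP array passed the threshold for it, a fall of at least 64.8-fold (adjusted p = 0.000152). Fabp1, which binds fatty acids inside liver cells, fell at least 29.4-fold, and Hpx, the heme carrier hemopexin, at least 12.9-fold. Ahsg, the plasma glycoprotein fetuin-A, had 11.57, 10.89 and 11.57 against 6.16, 6.26 and 6.10, and was above the threshold on 2 of 3 mcIRBP arrays. Mup3, a major urinary protein, had a log2 difference of -4.20 (SE 0.15, adjusted p = 8.18e-05). Its family has near-identical members, so its probe may have read several of them, and the same holds for Mug1, Serpina1e, Serpina3k and Cyp4a10.

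Clotting genes showed the lowest median of the lists, -2.19, and 15 of 20 fell while 0 rose. Serpinc1, antithrombin, had 10.93, 11.21 and 10.99 on the mock arrays and 5.90, 5.70 and 5.79 on the mcIRBP arrays. The 3 values of each group were close together, and the fall was at least 31.5-fold (adjusted p = 1.04e-05). F2, prothrombin, had 8.92, 9.04 and 8.87 against 5.74, 5.84 and 5.82, at least 7.33-fold lower, and the fibrinogen chain gene Fgb fell at least 8.59-fold. No mcIRBP array was above the threshold for any of these 3 genes. Among 7 serpins, a family of protease inhibitors, 3 fell and 4 did not pass (median -0.52). Serpina1e, an antitrypsin, had 11.66, 11.59 and 11.28 against 6.12, 5.81 and 5.84 (log2 fold change -5.58, SE 0.13, adjusted p = 2.36e-05), and Serpina3k had a log2 difference of -4.31 (SE 0.16, adjusted p = 9.26e-05). Serpina3n, an acute phase serpin, did not pass and had 9.61, 10.93 and 10.64 on the mock arrays and 12.38, 7.73 and 11.99 on the mcIRBP arrays. Its one low treated value was on mcIRBP replicate 2, and without that array the log2 fold change was 1.82.

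Of 23 genes of complement and the acute phase 12 fell and 0 rose (median -1.20). Hamp, which encodes the iron hormone hepcidin, had 11.26, 11.31 and 11.08 on the mock arrays and 5.79, 5.90 and 5.82 on the mcIRBP arrays. The groups were at opposite ends of the scale, at least 35.4-fold apart (adjusted p = 3.71e-06). Vtn, the adhesive plasma protein vitronectin, had 10.23, 10.75 and 10.32 against 6.25, 6.48 and 6.27 (log2 fold change -4.10, SE 0.15, adjusted p = 9.27e-05). Upstream regulators of hepcidin were counted in a list of metallothioneins and iron handling, where 3 of 15 genes fell and 0 rose (median 0.03), but 1 fell without mcIRBP replicate 2 or 3. These were Trfr2, transferrin receptor 2, at least 1.88-fold lower, Hfe2, hemojuvelin, at least 1.66-fold lower, and Tmprss6, the protease that cuts hemojuvelin. Tmprss6 was below the threshold on all 6 arrays, so no fold is given for it. The call of Hfe2 was lost without mock replicate 1 or any 1 mcIRBP array, and that of Tmprss6 without mock replicate 1 or 3 or any 1 mcIRBP array (adjusted p up to 0.349 and 0.349 over the alternatives).

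The promoters of 4 genes are shown because Alb, Serpina1e and Hamp encode secreted liver proteins with some of the largest falls, and Cav1 had the largest rise. Each runs 5′ to 3′ on the gene's strand from 250 bases before to 50 after the start site, in RefSeq's GRCm38.p6 annotation. Capitals mark GTTAAT, the half-site of the liver factor HNF1. They are Alb (chr5:90460620-90460919, plus strand), Serpina1e (chr12:103956848-103957147, minus strand), Hamp (chr7:30943980-30944279, minus strand) and the first of 2 promoters listed for Cav1 (chr6:17306085-17306384, plus strand).
Alb: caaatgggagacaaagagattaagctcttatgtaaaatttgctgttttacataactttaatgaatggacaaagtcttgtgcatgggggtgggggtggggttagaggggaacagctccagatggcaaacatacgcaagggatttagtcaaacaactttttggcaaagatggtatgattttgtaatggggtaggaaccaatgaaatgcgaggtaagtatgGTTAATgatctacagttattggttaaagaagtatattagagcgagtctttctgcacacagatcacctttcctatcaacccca
Serpina1e: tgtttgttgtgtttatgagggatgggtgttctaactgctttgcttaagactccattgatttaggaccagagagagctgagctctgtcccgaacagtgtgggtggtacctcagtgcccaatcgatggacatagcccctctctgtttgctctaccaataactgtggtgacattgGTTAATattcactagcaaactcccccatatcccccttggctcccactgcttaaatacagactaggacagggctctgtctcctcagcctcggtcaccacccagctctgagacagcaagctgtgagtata
Hamp: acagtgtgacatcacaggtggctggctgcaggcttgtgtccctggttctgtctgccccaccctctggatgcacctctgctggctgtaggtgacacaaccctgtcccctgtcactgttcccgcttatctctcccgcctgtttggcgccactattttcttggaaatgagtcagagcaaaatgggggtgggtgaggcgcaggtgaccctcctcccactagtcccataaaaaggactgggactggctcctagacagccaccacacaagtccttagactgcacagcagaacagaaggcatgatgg
Cav1: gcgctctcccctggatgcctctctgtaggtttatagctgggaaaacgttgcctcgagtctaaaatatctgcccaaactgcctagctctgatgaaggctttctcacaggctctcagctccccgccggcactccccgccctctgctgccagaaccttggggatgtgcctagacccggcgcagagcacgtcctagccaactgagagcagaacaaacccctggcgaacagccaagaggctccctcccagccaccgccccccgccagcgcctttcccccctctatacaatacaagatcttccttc

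Counted from the start site, the half-site begins at -32 in Alb and -78 in Serpina1e, and its letters are in neither of the other windows shown. Apoa2, Apoa1 and Serpinc1 also encode secreted liver proteins with falls among the largest, and their promoters, not shown, held GTTAAT on neither strand. Of 109 liver genes that fell 88 had a promoter in the table, and 19 of these (21.6%) held GTTAAT on either strand. Among array genes with a promoter it was 885 of 13345 (6.6%), and among all promoters of the same length 2332 of 32851 (7.1%). Of 105 genes that rose, counted by 1 probe per gene, 84 had a promoter in the table, and 1 of these held it (1.2%). The NF-kB motif GGGNNTTCC was in 5.7% of the liver genes that fell, 10.7% of the genes that rose, 7.6% of the array genes and 5.8% of all promoters. The HNF4 core CAAAGTCCA was in 2.3% of the liver genes that fell, 0.5% of the array genes and 0.5% of all promoters, and the C/EBP motif TTGCNCAA in 5.7%, 3.2% and 2.9%. Both strands were searched, and none of these motifs contains another. A match describes letters and not binding.

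Of 35 genes of cytochromes P450 and detoxification 23 fell and 0 rose (median -1.64). Cyp4a10, which hydroxylates fatty acids, had 9.83, 9.39 and 9.28 on the mock arrays and 6.01, 5.93 and 5.84 on the mcIRBP arrays. The fall was at least 10.8-fold (adjusted p = 0.000175), and its other probe fell too, with a log2 fold change of -1.53. The glucuronosyltransferase gene Ugt2b1 fell at least 6.41-fold, and Cyp1a2, an oxidase of caffeine and other drugs, at least 4.54-fold. In bile acid synthesis and transport 8 of 18 genes fell and 0 rose (median -0.93). Cyp7a1, the rate-limiting enzyme of bile acid synthesis, had 7.24, 7.08 and 7.08 against 5.97, 5.95 and 5.87. It was dimmer than the plasma protein genes, and its fall was at least 2.09-fold (adjusted p = 0.000582). The sterol hydroxylase gene Cyp8b1 fell at least 5.47-fold, and Slco1b2, a liver transporter of bile acids and drugs, at least 11.7-fold.

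Of 26 genes of amino acid breakdown and the urea cycle 15 fell and 0 rose (median -1.28). Mat1a, which makes S-adenosylmethionine in liver, had 9.84, 10.10 and 9.95 on the mock arrays and 5.82, 5.81 and 5.79 on the mcIRBP arrays. The arrays of each group were close together, and the fall was at least 14.9-fold (adjusted p = 1.04e-05). Gnmt, a methyltransferase that uses this product, fell at least 8.9-fold, and Arg1, the arginase of the urea cycle, at least 6.09-fold. Of 14 genes of liver sugar metabolism 6 fell and 0 rose (median -0.80), and the count was 2 without mcIRBP replicate 3 and 4 or 5 without any other array. Fbp1, an enzyme of glucose production, had 9.26, 9.56 and 9.33 against 5.82, 6.05 and 5.79 (log2 fold change -3.50, SE 0.11, adjusted p = 6.42e-05). G6pc, which releases free glucose from liver cells, had 8.46, 7.49 and 8.41 against 5.93, 5.87 and 5.84, at least 4.14-fold lower (adjusted p = 0.0149). Mock replicate 2 was its lowest mock array, and the call was lost without mock replicate 3 or mcIRBP replicate 1 or 3 (adjusted p up to 0.0774 over the alternatives).

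Of 13 liver transcription factors 2 fell, 0 rose and 8 were below the threshold on all 6 arrays (median -0.17). Hnf4a, a nuclear receptor needed for the liver cell programme, had 8.60, 7.45 and 8.32 on the mock arrays and 5.68, 5.78 and 5.70 on the mcIRBP arrays. It fell at least 4.16-fold (adjusted p = 0.0165), a call lost without mock replicate 3 or any 1 mcIRBP array (adjusted p up to 0.0859). The forkhead gene Foxa3 had 7.24, 7.42 and 7.33 against 5.89, 5.84 and 5.79, at least 2.4-fold lower (adjusted p = 0.000197). The 1 gene outside the liver lists among the 15 largest falls was Mug1, the plasma protease inhibitor murinoglobulin, at least 16.1-fold lower. Its second probe fell by 0.58 on the log2 scale.

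**Figure D2:**
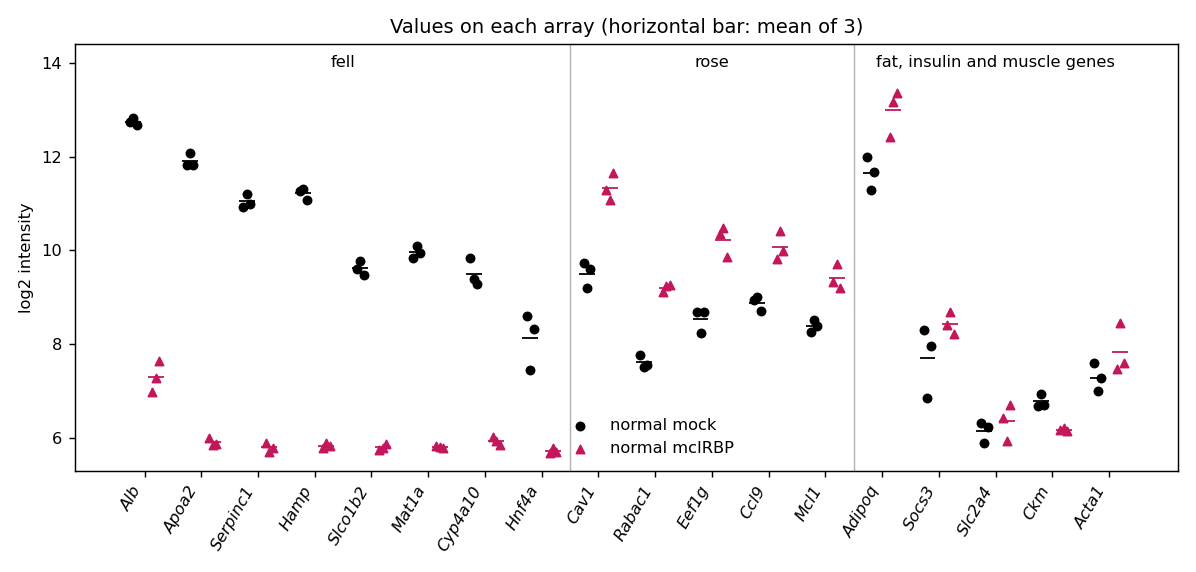
Log2 intensity of 18 genes on each of the 3 normal mock arrays (black circles) and 3 normal mcIRBP arrays (pink triangles), with a bar at each mean of 3. The 8 genes on the left fell and all but Alb, which stayed at 6.97 or more, reached the floor; the 5 in the middle rose, and of the 5 on the right only Ckm was called.

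Lipid synthesis was read in lists that are not limited to liver. Of 18 genes of cholesterol synthesis 5 fell and 0 rose (median -0.63), and 1 fell under median scaling and 1 under cyclic loess. Idi1, which makes an isoprenoid building block, had 8.30, 9.04 and 8.91 against 6.87, 5.97 and 6.25 (log2 fold change -2.38, SE 0.29, adjusted p = 0.0174). Its call was lost under 6 of 15 alternatives, among them without mock replicate 2 or 3 or mcIRBP replicate 3 (adjusted p up to 0.308). Fdps, which makes farnesyl diphosphate, had 8.55, 8.87 and 8.55 against 6.78, 6.18 and 6.85 (log2 fold change -2.06, SE 0.20, adjusted p = 0.00652). In both genes the groups did not overlap, as on every called probe, and the treated arrays spread more widely than the mock arrays did for Fdps. Tm7sf2, a sterol reductase, fell at least 2.06-fold. In fatty acid synthesis and desaturation 1 of 19 fell (median -0.04), the desaturase gene Fads2, at least 1.84-fold by 1 probe, while its other probe had a log2 fold change of 0.04. In fatty acid oxidation and ketogenesis 3 of 20 fell and 0 rose (median -0.30). Cpt1a, which admits fatty acids to mitochondria, had a log2 difference of -1.38 (SE 0.10, adjusted p = 0.00197). Bdh1, an enzyme of ketone bodies, fell at least 3.4-fold by 1 probe, and its other probe did not pass, with -0.57.

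None of 24 genes of fat cells was called, though 21 had a higher and 3 a lower mean on the mcIRBP arrays (median 0.50). The list mean was 8.39 to 8.63 on the mock arrays and 8.96 to 9.14 on the mcIRBP arrays, so the groups did not overlap. This was not particular to fat cell genes. List means of macrophage, endothelial and matrix genes did not overlap either. There 19, 16 and 29 genes had a higher mean, and 5, 3 and 4 a lower one. The median over all genes was 0.005, and 0.16 over the 6001 probes above the threshold on at least 3 arrays. Adipoq, the hormone adiponectin, had 11.99, 11.28 and 11.67 on the mock arrays and 12.42, 13.17 and 13.36 on the mcIRBP arrays (log2 fold change 1.34, SE 0.29, adjusted p = 0.123). Angptl4, an inhibitor of lipoprotein lipase, had 10.27, 10.64 and 10.15 against 11.12, 11.67 and 11.95 (log2 fold change 1.23, SE 0.23, adjusted p = 0.0836). In both, every mcIRBP array was above every mock array, as on 3044 of all 29922 probes. The lipid droplet gene Cidec had a log2 difference of 1.60 (SE 0.43, adjusted p = 0.214), and Lpl, lipoprotein lipase, 0.56 (SE 0.17, adjusted p = 0.266). The list median was 1.26 under median scaling and 0.29 under cyclic loess, with 0 genes called under either. Genes of the list rose in 4 other settings: 4 with all 12 arrays fitted together, 3 without mcIRBP replicate 1, 1 without mcIRBP replicate 3 and 2 when only probes above the threshold on at least 3 arrays were tested.

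Cav1 had the largest rise of the named genes. It encodes caveolin 1, the coat protein of caveolae, membrane pits abundant in fat and endothelial cells, and had 9.72, 9.19 and 9.60 on the mock arrays and 11.28, 11.08 and 11.64 on the mcIRBP arrays. All mcIRBP arrays were above all mock arrays, as on every probe that rose, with a log2 difference of 1.83 (SE 0.19, adjusted p = 0.00936). The call was lost with a variance trend and without mock replicate 3 (adjusted p up to 0.109). The other 6 measured genes of caveolae did not pass (median of the list 0.15).

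The other large rises came from genes of varied function. Herc2, a ubiquitin ligase, had 6.78, 7.11 and 7.28 against 8.68, 9.26 and 8.54 (log2 fold change 1.77, SE 0.22, adjusted p = 0.0187). Eef1g, a subunit of translation elongation factor 1, had 8.69, 8.24 and 8.68 against 10.35, 10.47 and 9.85 (log2 fold change 1.69, SE 0.20, adjusted p = 0.0161). Rabac1, which acts in vesicle traffic, had 7.77, 7.52 and 7.55 against 9.12, 9.24 and 9.26 (log2 fold change 1.59, SE 0.08, adjusted p = 0.000504). In all 3 the groups did not overlap, which the rule for naming the largest rises required. The call of Rabac1 was lost only under median scaling. The protease gene Htra1 had 7.20, 7.17 and 7.12 against 8.22, 8.50 and 8.37 (log2 fold change 1.20, SE 0.08, adjusted p = 0.00137). Ppap2b, a lipid phosphatase now named Plpp3, had a log2 fold change of 1.49 by 1 probe, while its other probe had 0.23 and did not pass. Log2 fold changes were 1.32 for Mgl1, 1.20 for the calcium-binding protein gene Cib2, 1.09 for the matrix proteoglycan gene Prelp and 1.03 for Mcl1, which protects cells from apoptosis. For 4 more genes no mock array passed the threshold. These were the translation initiation gene Eif1b, at least 1.99-fold higher, 2310016C16Rik, now named Gpx8, at least 2.15-fold, the membrane traffic gene Ehd4, at least 1.44-fold by 1 of its 2 probes, and the actin regulator gene Cap1, at least 1.37-fold. Of the 15 largest rises 0 kept the call under all 15 alternatives, and 0 changed sign.

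Immune and vessel genes gave few calls. Of 40 chemokines and inflammatory genes 2 rose and 0 fell (median 0.18), with 0 rises without any 1 mock array and 1 to 3 without an mcIRBP array. Ccl9, a chemokine of myeloid cells, had 8.95, 9.01 and 8.70 on the mock arrays and 9.81, 10.42 and 9.98 on the mcIRBP arrays (log2 fold change 1.18, SE 0.17, adjusted p = 0.0336). Tlr2, a receptor of bacterial lipoproteins, had 5.87, 5.84 and 5.74 against 6.35, 6.21 and 6.18, close to the floor, and its call was lost under 12 of 15 alternatives, among them each array left out (adjusted p up to 0.665). The monocyte chemokine gene Ccl2 had 7.83, 7.42 and 7.62 against 9.02, 8.99 and 8.34 and did not pass (log2 fold change 1.16, SE 0.21, adjusted p = 0.0685), nor did the chemokine gene Ccl4 (0.96, SE 0.19, adjusted p = 0.0891). Of 24 macrophage markers 1 rose (median 0.34), the Fc receptor gene Fcgr1, with a log2 fold change of 0.36, a call lost under 12 of 15 alternatives, among them each array left out (adjusted p up to 0.852). Of 12 neutrophil and mast cell markers 1 rose (median 0.03), the neutrophil gene S100a9, at least 1.63-fold, a call lost without any 1 mock array or mcIRBP replicate 3. Of 19 endothelial markers 2 rose (median 0.38): Tek, the angiopoietin receptor, by 0.38 on the log2 scale, and Sox18, a transcription factor of vessels, at least 1.25-fold. The call of Tek was lost without any 1 of the 6 arrays, and that of Sox18 without any 1 but mcIRBP replicate 2 (adjusted p up to 0.61 and 0.349 over the alternatives). The lists of extracellular matrix, MHC class II, interferon-induced, lymphocyte, smooth muscle, red blood cell, pancreas, kidney, uterus and ovary genes had 0 calls, with medians between -0.04 and 0.26.

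**Figure D3:**
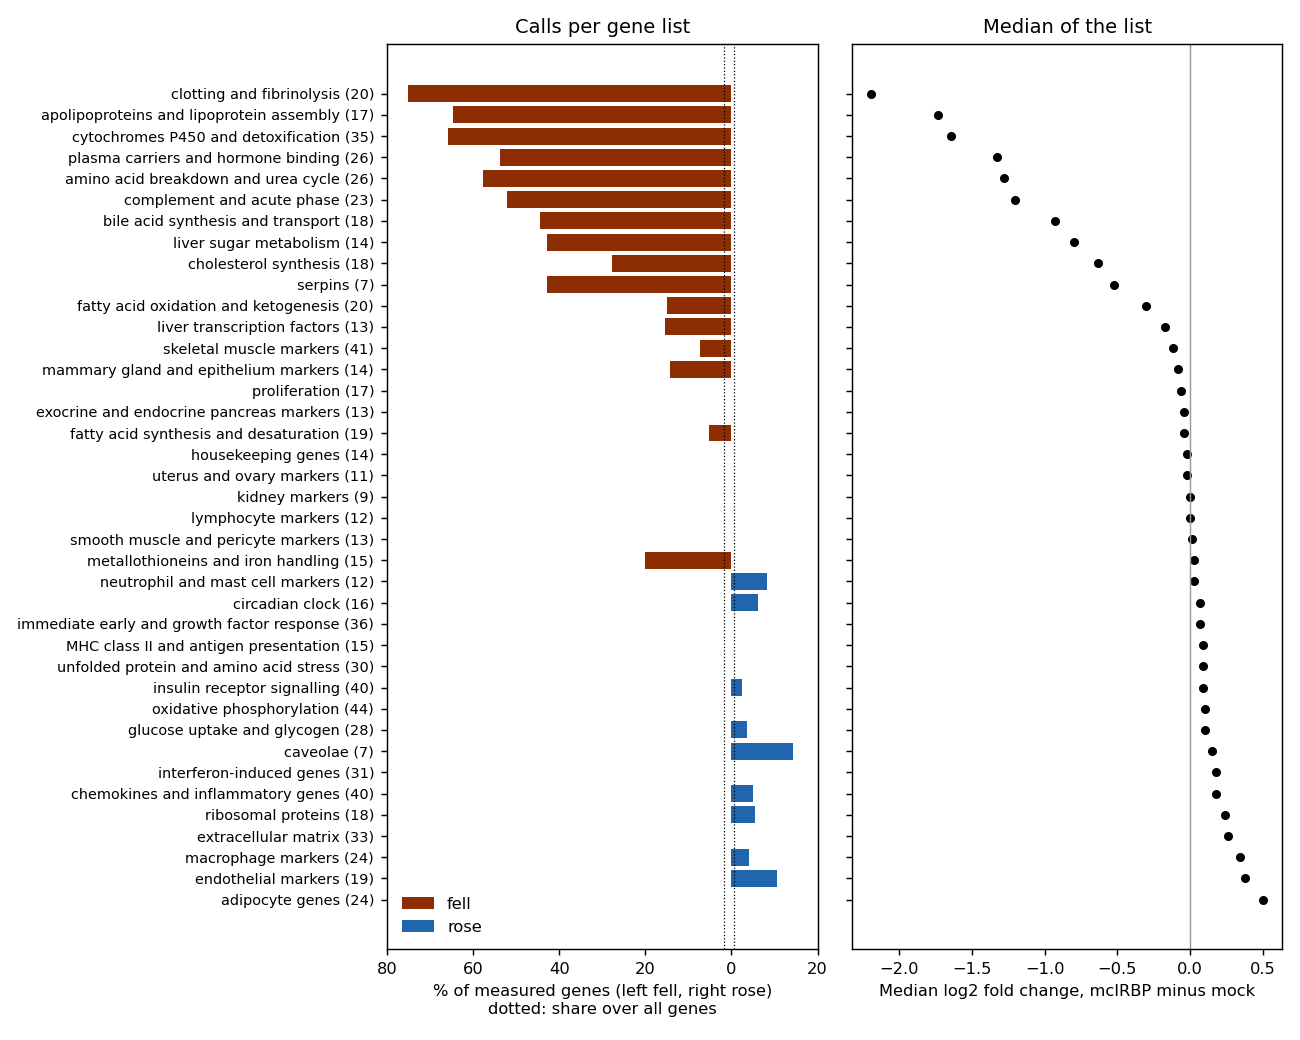
Left, the percentage of measured genes in each list that fell (brown, drawn to the left) or rose (blue, to the right) on the normal mcIRBP arrays, with dotted lines at the shares over all genes, 1.67% and 0.63%; right, the median log2 fold change of each list. Lists with at least 7 measured genes are shown, with that number in parentheses. Liver lists have the longest bars, except liver transcription factors, where 2 of 13 fell. Fat cell genes have the highest median, 0.50, with no call.

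Of 40 genes of insulin receptor signalling 1 rose and 0 fell (median 0.09), and 9 were below the threshold on all 6 arrays. The gene that rose was Socs1, an inhibitor of cytokine and insulin signalling, with 5.87, 5.85 and 5.73 against 6.26, 6.32 and 6.16 (log2 fold change 0.43, SE 0.07, adjusted p = 0.0433). Its other probe had -0.05, and the call was lost without any 1 of the 6 arrays (adjusted p up to 0.516 over the alternatives). Insr, the insulin receptor, had 5.84, 5.81 and 5.68 against 5.93, 5.89 and 5.82, all below the threshold. Irs1, the receptor's substrate, was below the threshold on all 6 arrays as well. Pik3r1, the regulatory subunit of PI3 kinase, had 6.78, 6.37 and 6.66 against 7.13, 6.43 and 6.41 (log2 fold change 0.06, SE 0.22, adjusted p = 0.939). The kinase gene Akt2 had 6.92, 7.35 and 7.10 against 7.15, 6.23 and 7.16 (log2 fold change -0.27, SE 0.28, adjusted p = 0.727). The groups overlapped in both, and both changed sign under other settings. Grb10, an adaptor that restrains the receptor, had 6.68, 6.82 and 6.60 against 7.04, 7.57 and 7.66. Its groups did not overlap, as on 3044 of all 29922 probes, but it did not pass (log2 fold change 0.73, SE 0.17, adjusted p = 0.158). Socs3, another inhibitor, had 8.30, 6.86 and 7.97 against 8.40, 8.68 and 8.22, with mock replicate 2 the lowest (adjusted p = 0.516).

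Of 28 genes of glucose uptake and glycogen 1 rose and 0 fell (median 0.10). This was Slc2a1, the transporter GLUT1, with 5.81, 5.76 and 5.78 against 6.18, 6.28 and 6.31 (log2 fold change 0.48, SE 0.05, adjusted p = 0.0133). It was above the threshold on the mcIRBP arrays and on none of the mock arrays, and the call was lost without mock replicate 2 or 3 or mcIRBP replicate 2 or 3 (adjusted p up to 0.349 over the alternatives). Slc2a4, the insulin-regulated transporter GLUT4, had 6.31, 5.89 and 6.24 against 6.42, 5.93 and 6.71, and the groups overlapped (log2 fold change 0.20, SE 0.22, adjusted p = 0.745). Hk2, the hexokinase that traps glucose in muscle and fat, had 7.62, 7.53 and 7.61 against 7.77, 8.17 and 7.69 (log2 fold change 0.29, SE 0.13, adjusted p = 0.456). Pdk4, which restrains glucose oxidation, had 6.97, 5.85 and 6.30 against 6.82, 6.73 and 6.76 (adjusted p = 0.619), and mock replicate 2 was again the lowest. The coactivator gene Ppargc1a was below the threshold on all 6 arrays, and Irs2 and Gys1 had no probe. A p that misses the threshold does not show that these genes were alike in both groups.

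Of 41 skeletal muscle genes 3 fell and 0 rose (median -0.12, or 0.01 under median scaling). Ckm, muscle creatine kinase, had 6.68, 6.94 and 6.71 on the mock arrays and 6.16, 6.22 and 6.14 on the mcIRBP arrays (log2 fold change -0.60, SE 0.08, adjusted p = 0.0273). Atp2a1, the calcium pump of fast fibres, had a log2 fold change of -0.55, and Mybpc2, a myosin-binding protein, was below the threshold on all 6 arrays. Without mock replicate 3 or any 1 mcIRBP array 0 of the list fell. In the list of mammary gland and epithelium 2 of 14 fell (median -0.08), the keratin genes Krt8, at least 2.11-fold, and Krt18, at least 1.79-fold, which liver cells also express. The call of Krt8 was lost without mcIRBP replicate 3. Of 18 ribosomal protein genes 1 rose (median 0.24), Rps19, at least 1.04-fold by 1 of its 2 probes, a call lost without any 1 mock array or mcIRBP replicate 1 or 2. Of 16 circadian genes 1 rose (median 0.07), the clock repressor gene Nr1d2, with 0.33 on the log2 scale by 1 of its 2 probes. This list had 0 rises without any 1 of the 6 arrays, and the call of Nr1d2 was lost under 11 of 15 alternatives (adjusted p up to 0.711). The lists of the unfolded protein response (30 genes), immediate early genes (36), oxidative phosphorylation (44), housekeeping (14) and proliferation (17) had 0 calls and medians between -0.06 and 0.10.

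The effect of mcIRBP in normal mice was set against that in diabetic mice in 1 fit of all 12 arrays, normalized together. The difference passed for 2760 probes (9.22%), 1470 with a higher and 1290 with a lower effect in normal mice, and 6378 had an unadjusted p under 0.05. In this fit the spread of each probe was pooled over all 12 arrays. Arrays of a group correlated less well in normal than in diabetic mice, so its p-values may be too small for the normal arrays. Disease state and labelled sex fall on the same arrays and cannot be told apart. Of the 199 liver genes 123 had a lower and 17 a higher effect in normal mice. Their mean level was 8.42 to 8.55 on the normal mock arrays, 6.65 to 6.69 on normal mcIRBP, 6.72 to 6.75 on diabetic mock and 6.43 to 6.45 on diabetic mcIRBP. Only the normal mock arrays were high. Alb had an effect of -5.78 in normal and -0.62 in diabetic mice on the log2 scale, a difference of -5.17 (adjusted p = 1.03e-07). Serpina3k fell in both, with -4.65 and -2.79, a difference of -1.86 (adjusted p = 0.000329).

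Fat cell genes ran differently over the 4 groups. Their mean level was 8.86 to 9.12 on normal mock, 9.46 to 9.65 on normal mcIRBP, 9.39 to 9.44 on diabetic mock and 7.40 to 7.46 on diabetic mcIRBP arrays. The diabetic mcIRBP arrays were the low ones, and 19 of 24 genes had a higher effect in normal mice while 0 had a lower one. Adipoq had an effect of 1.27 in normal and -2.95 in diabetic mice, a difference of 4.23 (adjusted p = 2.04e-05). Cav1 had 1.93 and -2.58, a difference of 4.51 (adjusted p = 1.06e-06). Of 40 insulin receptor signalling genes 7 had a higher and 3 a lower effect in normal mice. For Insr, Pik3r1, Akt2 and Slc2a4 the difference did not pass, with adjusted p of 0.121, 0.166, 0.764 and 0.463.

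**Figure D4:**
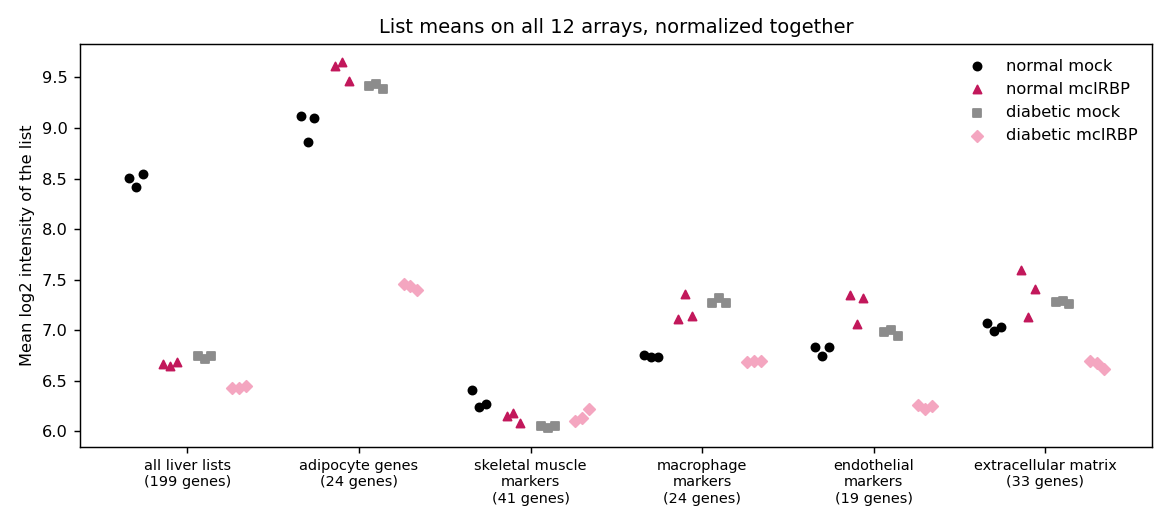
Mean log2 intensity of 6 gene lists on each of the 12 arrays, normalized together, with 3 points for each of the 4 groups. Liver genes are high only on the normal mock arrays (8.42 to 8.55), fat cell genes are low only on the diabetic mcIRBP arrays (7.40 to 7.46), and skeletal muscle genes are low in all 4 groups.

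The counts depended on the scaling, while liver genes fell under each. With median scaling in place of quantile normalization 19 probes rose and 174 fell, and with cyclic loess 10 rose and 134 fell, so that 9.8% and 6.9% of the calls were rises against 26.5%. With all 12 arrays fitted together 1069 rose and 829 fell, 56.3% rises, and 118 of the 131 rises and 362 of the 364 falls were among them. With no background correction, the deposited normalized intensity or array weights 116 to 124 of the 131 rises were called again, and 48 among probes above the threshold on at least 3 arrays. Far fewer were called again under the other settings: 1 under median scaling, 10 under cyclic loess, 12 with the replicate block, 25 with a variance trend and 16 to 48 with 1 array left out. Of the 364 falls these last settings called 174, 132, 237, 302 and 242 to 301 again. The liver genes that fell numbered 72 under median scaling, 59 under cyclic loess and 128 over the 12 arrays. Of the 15 largest falls 14 kept their call under all 15 alternatives, and Serpina3k lost it under median scaling (adjusted p = 0.0702).

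**Figure D5:**
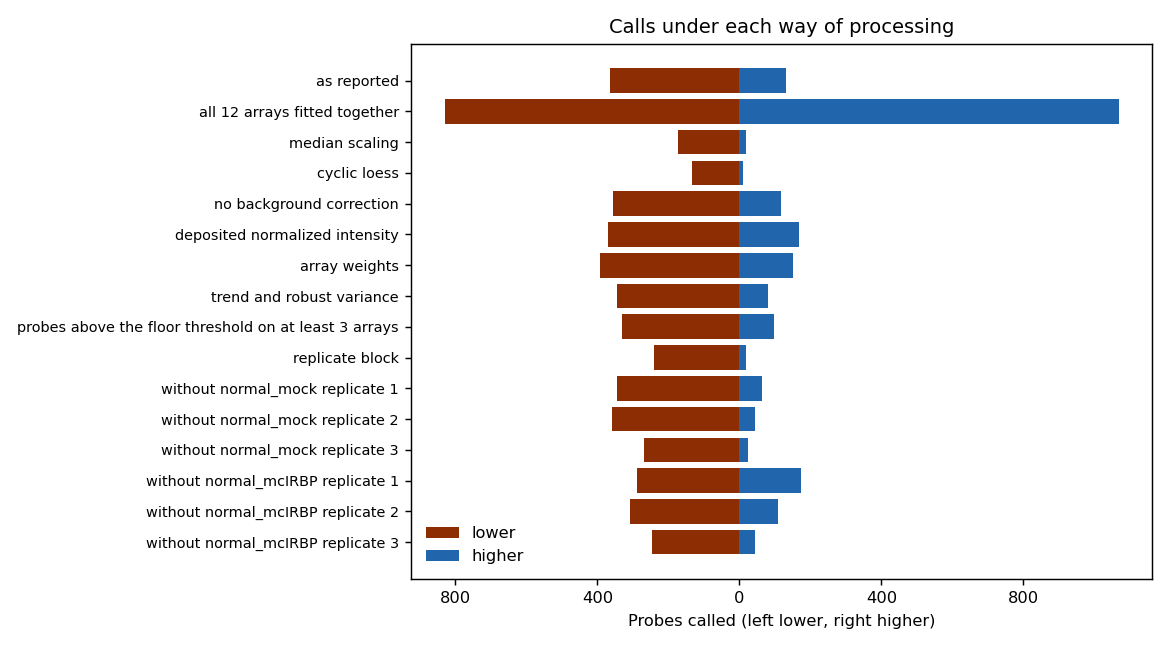
Number of probes called lower (drawn to the left) and higher (to the right) on normal mcIRBP against normal mock arrays under each way of processing. Falls range from 134 to 829 and rises from 10 to 1069, against 364 and 131 as reported.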

How the data were processed

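Each of 12 samples was 1 array of 29922 probes, with raw and normalized intensity deposited by the authors. Per the labels, 5 µg of total RNA was amplified and labelled with Cy5, and limma, with no version given, is named in the submitters' processing notes. Probes were named through GEO's platform annotation, and 16633 of 16675 symbols matched RefSeq's GRCm38.p6. Raw intensities of the 6 normal arrays were corrected by normexp (offset 50), quantile normalized and tested in limma 3.58.1 (R 4.3.3, statmod 1.5.0) with Benjamini-Hochberg adjustment. The 2 groups were the only terms. A 12-array fit gave the difference between disease states. The number of arrays, 3 a group, limits the precision.

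Named genes were the 15 largest rises and falls among called probes with a measured brighter group and no overlap, the list members with the lowest p, fixed insulin and marker genes, and those with the lowest p for the difference between states, of which 5 at the floor on the normal arrays are left out. The lists and members were chosen with earlier results of these data known. The alternatives were other scalings, background, weights, variance models, filters, a replicate block, the deposited normalized intensity and leaving out each array.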

Additional observations from a re-analysis of the deposited data

Results flagged for a closer look

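The effect of mcIRBP (mcIRBP minus mock, log2) differed between normal and diabetic mice for 74 of the 87 genes named here, by limma's test of the difference with Benjamini-Hochberg adjustment over all 29922 probes. The difference was lower in normal mice for 44 of them and higher for 30. Of all probes 9.22% passed this test. Most of the named genes were picked for a change in normal mice, so their count is not independent of that choice. Each value below is the effect in normal mice minus that in diabetic mice, on the log2 scale. Disease state and labelled sex cannot be told apart in it.

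Plasma protein genes had the largest differences. For lipid and hormone carriers they were -6.94 for Ttr, -6.61 for Apoa2, -6.06 for Apoa1, -5.17 for Apoc3, -5.17 for Alb, -5.91 for Fabp1, -6.07 for Ahsg, -4.54 for Mup3 and -4.19 for Hpx. For clotting factors, serpins and other secreted proteins they were -5.88 for Serpinc1, -3.84 for F2, -4.02 for Fgb, -5.83 for Serpina1e, -1.86 for Serpina3k, -4.86 for Mug1, -6.04 for Hamp and -4.24 for Vtn. For most of these genes the mcIRBP effect in diabetic mice was near 0, while Serpina3k had -2.79 there. The mean of all liver genes was already 6.72 to 6.75 on the diabetic mock arrays, against 8.42 to 8.55 on normal mock. Of the 199 liver genes 85 were above the threshold on all diabetic mock arrays, against 135 on all normal mock arrays. The lists varied, with 4 against 15 of 20 clotting genes and 10 against 11 of 17 apolipoprotein genes. Whether the level on the diabetic mock arrays bears on these differences was not tested.

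Liver enzymes, transporters and factors followed the same sign. The differences were -4.43 for Cyp4a10, -3.55 for Ugt2b1, -2.73 for Cyp1a2, -4.46 for Slco1b2, -1.44 for Cyp7a1 and -3.16 for Cyp8b1. In amino acid and sugar metabolism they were -4.95 for Mat1a, -4.09 for Gnmt, -3.30 for Arg1, -4.21 for Fbp1 and -2.70 for G6pc, and for transcription factors -2.97 for Hnf4a and -1.95 for Foxa3. For the iron regulators they were -1.25 for Trfr2, -1.19 for Hfe2 and -0.80 for Tmprss6, and for the keratins -3.57 for Krt8 and -3.79 for Krt18.

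Lipid metabolism outside the liver lists gave -4.35 for Fdps, -3.19 for Idi1, -1.91 for Tm7sf2, -2.84 for Fads2, -2.84 for Bdh1 and -2.19 for Cpt1a. In diabetic mice the effect was 2.03 for Fdps, so this gene moved in opposite directions. Muscle genes gave -0.72 for Ckm, -0.51 for Mybpc2 and -0.70 for Atp2a1.

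Fat cell genes and Cav1 had differences above 0, with 5.31 for Cidec, 4.51 for Cav1, 4.23 for Adipoq, 3.93 for Angptl4 and 3.62 for Lpl. All 5 had a negative effect in diabetic mice, from -2.58 to -3.72. Other genes with large rises gave 1.32 for Rabac1, 1.04 for Ppap2b, 1.92 for Eif1b, 2.71 for Mgl1, 1.67 for Cap1, 2.62 for Cib2, 1.81 for 2310016C16Rik, 2.24 for Htra1, 1.66 for Ehd4, 2.56 for Prelp and 1.13 for Mcl1. For Herc2 and Eef1g, also among the largest rises, the difference did not pass. Immune and vessel genes gave 2.77 for Ccl9, 1.92 for Ccl2, 1.07 for Ccl4, 1.10 for Tlr2, 0.65 for Fcgr1, 0.95 for Tek and 1.40 for Sox18.

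In the insulin and glucose lists the differences were 3.27 for Pdk4, 1.80 for Socs3, 1.73 for Grb10, 0.87 for Slc2a1 and 0.58 for Socs1. Pdk4, Socs3 and Grb10 were not called within normal mice, and Pdk4 had an effect of -2.76 in diabetic mice. The last were 1.60 for Rps19 and 0.37 for Nr1d2.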

How the results depend on the processing

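The counts were recomputed under 15 alternatives. Against 131 rises and 364 falls, fitting all 12 arrays gave 1069 and 829, median scaling 19 and 174, cyclic loess 10 and 134, and a variance trend with robust estimation 81 rises. Leaving out 1 array gave 24 to 173 rises and 247 to 360 falls, the fewest rises without mock replicate 3 and the fewest falls without mcIRBP replicate 3. The difference between disease states passed for 2760 probes, 6297 under median scaling and 1905 to 3499 with 1 array left out. Median scaling turned the sign of 9 of the 364 falls. Over genes named here 1010 values kept direction and call, 257 lost the call, 17 gained it and 12 turned sign. Those that turned were all of uncalled genes: Akt2 with 0.36 and Myh4 with 0.05 under median scaling, Pik3r1 with -0.06 and Slc2a4 with -0.07 under cyclic loess, and the rest with 1 array left out, where Akt2 ran from -0.44 to 0.03, Myh4 from -0.56 to 0.03, Pik3r1 from -0.18 to 0.18, Serpina3n from -0.50 to 1.82 and Irs1 from -0.15 to 0.01. The causes were not tested.

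With the replicate number as a block 20 probes rose and 240 fell, and 82 liver genes fell. Deviations from the group means had r of -0.055, -0.238 and -0.051 between same-numbered arrays over 6001 probes. Between differently numbered arrays r ran from -0.284 to 0.297. Within a group these deviations offset each other by construction, so the r values cannot decide whether the numbers pair the arrays. Signal over background limits what could be measured: 22 probes that fell were above the threshold on no array, and 25 of 41 muscle genes were below it on all 6 normal arrays.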

Other observations

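mcIRBP replicate 2 stood apart from the other 5 normal arrays in several gene groups, housekeeping genes among them. Of 14 housekeeping genes 3 were low on it alone, Hprt1, Ldha and Hsp90ab1, and the mean level of the list was 6.75 on it against 7.19 to 7.40 on the other normal arrays. Of 18 ribosomal protein genes 2 were low, Rpl8 and Rpl41, and of 20 genes of fatty acid oxidation 3, Cpt2, Acadvl and Hadh. These genes and those that follow were chosen after their values were seen, as those more than 1 log2 unit beyond every other normal array. In fatty acid synthesis and desaturation 3 of 19 genes were low on it alone, Fasn, Acly and Fads1. Of 31 interferon-induced genes 4 were low, Ifi27, Ifitm3, Rsad2 and Bst2, and 1 was high, Ifit3. Of 33 extracellular matrix genes 4 were low, Col3a1, Col4a2, Dcn and Timp3, and of 44 genes of oxidative phosphorylation 4 were low, Ndufb8, Sdhc, Cyc1 and Atp5c1, and 1 was high, Ndufa4. Among fat cell genes Lep, the hormone leptin, and Cidea were high and Mgll, a lipase, was low. In several lists 0 genes stood apart on it, among them clotting, apolipoproteins, skeletal muscle and proliferation. In these 4 lists 15 of 20, 10 of 17, 25 of 41 and 16 of 17 genes were above the threshold on no mcIRBP array. For such genes a value lower on it alone could hardly be seen, so the 0 does not show that it was like the other arrays there.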
